A study of Mus musculus with 2 samples.

Results

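Transcripts of 10 acute phase genes were followed through the cell classes of mouse liver tumours: Saa1, Saa2, Saa3, Orm1, Orm2, Serpina3n, Hp, Lcn2, Itih3 and Fgb. They were given as a list of names, which was chosen with earlier results of these data known. The genes were found by symbol, and all 10 were among the 32285 genes of both count tables. Single-cell RNA sequencing had been done on tumours of Crtc2+/+ and of Crtc2-/- mice, which lack a coactivator of the transcription factor CREB, with 1 library per genotype. Mice of both genotypes had received an intraperitoneal dose of 25 mg/kg of the liver carcinogen DEN (diethylnitrosamine) at 2 weeks of age and a NASH diet, which produces fatty and inflamed livers, from week 8 to week 26, so neither library is from an untreated liver. The sources used here do not say how many animals or tumours were pooled per library. With 1 library per genotype no test can be made, and genotype cannot be told apart from the animal, the tumour or the library.

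The acute phase response is a change in the proteins that the liver secretes into blood after infection, injury or inflammation. Interleukin-6 and its relatives act on hepatocytes through the receptor chain gp130 and the factor STAT3, interleukin-1 acts through NF-kB, and members of the C/EBP family act at many of the same promoters. Serum amyloid A proteins (Saa1, Saa2, Saa3) are small apolipoproteins, orosomucoids (Orm1, Orm2) carry lipophilic molecules, Serpina3n inhibits serine proteases, and haptoglobin (Hp) binds free haemoglobin. Lipocalin 2 (Lcn2) binds bacterial iron carriers, Itih3 is a heavy chain bound to hyaluronan, and Fgb is the beta chain of fibrinogen. Neutrophils store Lcn2, Hp and Orm1 proteins in their granules, and Saa3 is made by macrophages and other cells outside the liver parenchyma.

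Promoter sequences from RefSeq (GRCm38.p6) were found for 8 of the 10 genes, all except Orm1 and Hp. In the 200 bases before each start, both strands were searched for the letters TTNNGNAAT (C/EBP) and TTCNNNGAA (STAT), where N is any base, and for the NF-kB letters GGG, 2 bases of any kind, TT, 1 base of any kind and CC. A match is a description of the sequence and not a bound site. The C/EBP letters occurred in Saa1, Saa2, Orm2 and Serpina3n, and in 7.83% of the 32843 promoters of the table. The STAT letters, which read the same on both strands, occurred in Fgb and in 5.49% of promoters, and the NF-kB letters in Serpina3n and in 3.39%. Windows of Saa3, Lcn2 and Itih3 held none of the 3. In another annotation, GENCODE, the whole Lcn2 window and all but 27 bases of the Itih3 window lie inside the gene. The bases after the Serpina3n start were not found in its GENCODE transcripts. The windows of these genes may thus not be those before their main starts. No match overlapped that of another motif. Shown are the pair of serum amyloid genes that differed most between libraries in hepatocytes, the inhibitor gene with matches to both C/EBP and NF-kB letters, and the fibrinogen gene. Of Saa2 only 157 bases are shown, since the rest of its window lies inside the GENCODE gene. The sequences run 5′ to 3′ in the direction of the gene, with matches in capitals. They lie at chr7:46742981-46743180 on the minus strand (Saa1), chr7:46751633-46751789 on the plus strand (Saa2), chr12:104406508-104406707 on the plus strand (Serpina3n) and chr3:83049864-83050063 on the minus strand (Fgb).
Saa1: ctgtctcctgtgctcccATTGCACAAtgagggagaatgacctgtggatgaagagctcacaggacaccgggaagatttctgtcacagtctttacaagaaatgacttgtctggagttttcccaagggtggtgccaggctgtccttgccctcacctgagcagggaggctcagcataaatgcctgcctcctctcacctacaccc
Saa2: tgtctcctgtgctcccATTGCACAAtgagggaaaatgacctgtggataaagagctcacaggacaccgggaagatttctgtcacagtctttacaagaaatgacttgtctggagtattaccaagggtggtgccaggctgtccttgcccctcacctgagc
Serpina3n: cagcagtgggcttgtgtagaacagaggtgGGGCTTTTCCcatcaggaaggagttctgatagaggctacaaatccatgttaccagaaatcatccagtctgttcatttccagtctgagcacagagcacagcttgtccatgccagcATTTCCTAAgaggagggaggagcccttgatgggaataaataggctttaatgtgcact
Fgb: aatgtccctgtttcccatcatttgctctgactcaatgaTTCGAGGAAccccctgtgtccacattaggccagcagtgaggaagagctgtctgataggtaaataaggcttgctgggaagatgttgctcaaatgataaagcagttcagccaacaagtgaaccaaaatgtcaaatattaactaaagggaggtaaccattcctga
The capitals are the C/EBP letters, on the minus strand of the gene, in Saa1 and Saa2, the NF-kB and then the C/EBP letters in Serpina3n, and the STAT letters in Fgb. The 200-base windows of Saa1 and Saa2 shared a run of 65 identical bases, and the genes start 8810 bases apart on chromosome 7, facing away from each other. Their longest transcripts share a run of 76 identical bases and those of Orm1 and Orm2 a run of 141, so counts of these pairs could be split between the copies and their separate levels are uncertain. Fgb lies on chromosome 3, as does Crtc2, 7.20 megabases away.

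Depth was similar in the libraries, with 81487425 UMIs (unique molecular identifiers, counted transcripts) in 9707 Crtc2+/+ barcodes and 78040008 in 9242 Crtc2-/- barcodes. After filters 9349 and 8901 cells remained. Crtc2 itself was counted 615 times, 7.96 CPM (counts per 1000000 UMIs; exact 95% Poisson interval 7.34 to 8.61), and 400 times, 5.43 CPM (4.91 to 5.99). In hepatocytes it stood at 9.70 (6.21 to 14.4) and 4.10 CPM (2.18 to 7.01), from 24 and 13 UMIs. The sources used here do not say which part of the gene was deleted, and counts near the 3′ end outside it do not check the genotype label.

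Classes were defined by UMIs of fixed genes, and a barcode could belong to more than 1 class. Hepatocytes (at least 20 UMIs of Alb, Apoa1 and Ttr) numbered 270 and 239, and held 182 and 160 keratin-high cells (at least 4 UMIs of Krt8 and Krt18) and 88 and 79 keratin-low cells. Monocytes (Ly6c2 and Ccr2) numbered 824 and 969, macrophages (C1qa, C1qb, C1qc) 4940 and 1662, neutrophils (S100a8, S100a9) 75 and 310, endothelial cells (Ptprb, Stab2) 233 and 677, and T cells (Cd3d, Cd3e, Cd3g) 1926 and 2608. The 6 hepatocyte markers that did not define the class, among them Cps1 and Hnf4a, summed to 1673 and 2380 CPM in hepatocytes. They summed to 118 and 12.3 CPM in neutrophils, 36.7 and 85.2 CPM in endothelial cells and 18.3 and 34.4 CPM in T cells. All 6 also had UMIs in macrophages, endothelial cells and T cells of both libraries, so having a UMI does not mark the class. The class nevertheless held many cells with UMIs of bile duct markers. Whether these were tumour cells, bile duct cells or doublets was not tested. Of hepatocytes, 45.9% (39.9 to 52.1, exact Clopper-Pearson interval) in the Crtc2+/+ and 36.4% (30.3 to 42.8) in the Crtc2-/- library had a UMI of Krt19, Krt7, Epcam or Sox9, genes of bile duct cells, and Spp1 stood at 30645 and 6048 CPM. The 5 bile duct markers, Spp1 included, summed to 31365 and 6287 CPM in hepatocytes, almost all of it from Spp1. All 5 had UMIs in hepatocytes of both libraries, but also in macrophages of both. In hepatocytes 4 of 4 markers of stellate cells and fibroblasts were at 0. Median depth of hepatocytes was 7619.5 and 11401 UMIs and their median mitochondrial share 4.88% and 1.78%. The part of the bile duct marker cells, depth and mitochondrial share in the results below was not tested, except where values with and without the bile duct marker cells are given. No hepatocyte barcode sequence was shared between the libraries, against 29 barcode sequences overall.

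The genes differed in the classes that held them, and shares can add to over 100% because classes overlap. Fgb was found mostly in hepatocytes, which held 82.1% of its UMIs in the Crtc2+/+ and 91.3% in the Crtc2-/- library. Itih3 was similar at 89.4% and 90.7%, and Orm1 at 77.6% and 79.5%. Hp was spread more widely, with 62.3% and 60.9% of its UMIs in hepatocytes and 16.6% and 23.5% in monocytes. For Lcn2 the main class differed between libraries: hepatocytes held 52.9% and neutrophils 10.9% of its UMIs in the Crtc2+/+ library, against 41.3% and 54.1% in the Crtc2-/- library. Of Saa1, 63.2% and 90.4% of UMIs were in hepatocytes, and of Saa2 none of 5 UMIs in the Crtc2+/+ and 91.8% in the Crtc2-/- library. Saa3 had 72.5% and 76.4% of its UMIs in monocytes and 4.93% and 1.56% in hepatocytes.

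**Figure D1:**
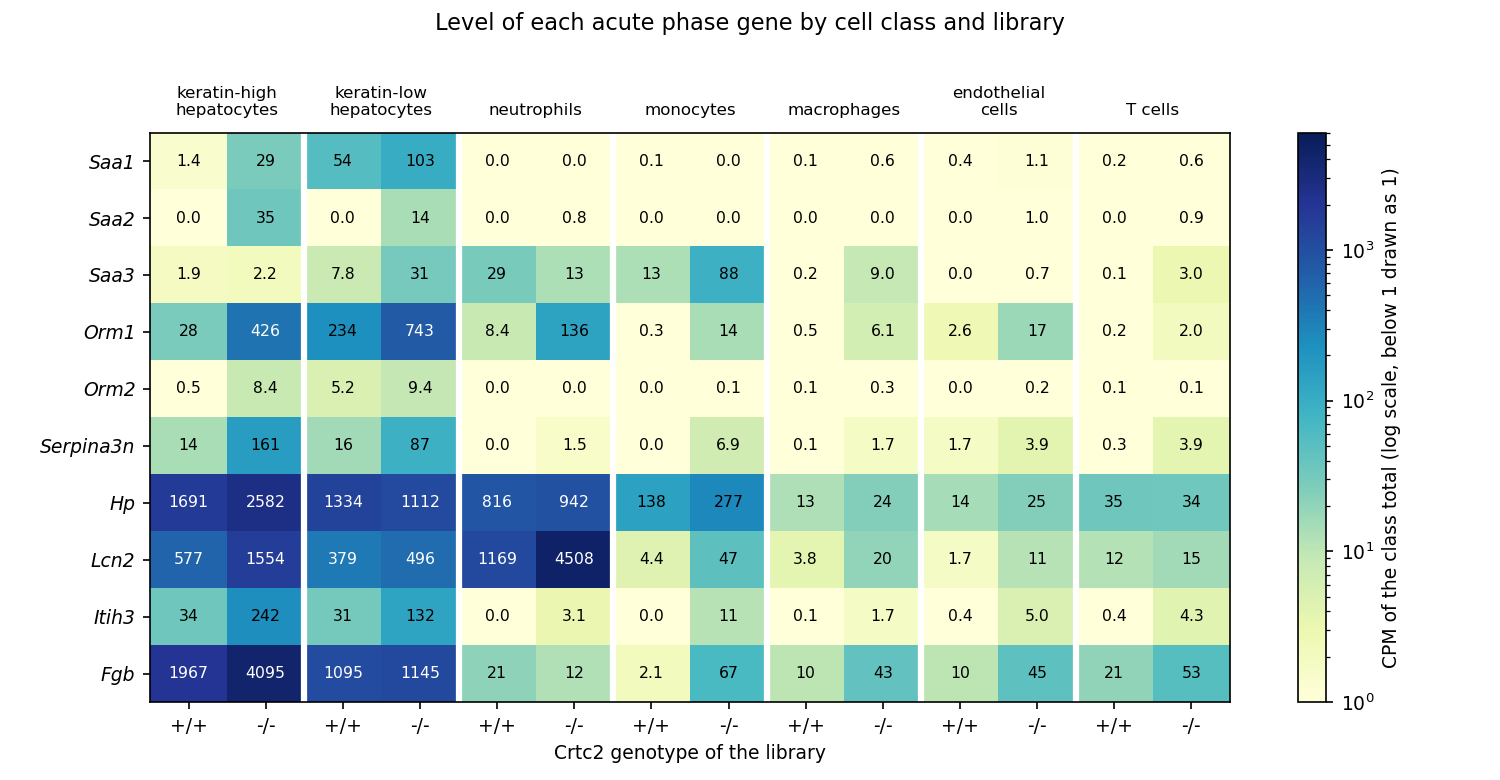
Level of each of the 10 genes (rows) in 7 cell classes of both libraries (columns, Crtc2+/+ at the left of each pair), in CPM of the class total, with the colour on a log scale. Fgb and Hp were above 1000 CPM in keratin-high hepatocytes of both libraries, Lcn2 was highest in Crtc2-/- neutrophils at 4508 CPM, and Saa3 in Crtc2-/- monocytes at 88.5 CPM.

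Hepatocytes of the Crtc2-/- library carried more acute phase transcripts than those of the Crtc2+/+ library. The 10 genes summed to 4134 CPM in the Crtc2+/+ and 8428 CPM in the Crtc2-/- hepatocytes. At a threshold of 2-fold on the ratio of CPM with 10 CPM added to each, 7 of the 10 were higher in the Crtc2-/- library and 0 lower, all 10 having at least the 20 UMIs required. Of all 12342 genes with that many UMIs, 4.21% were that much higher and 4% that much lower. The UMIs required are summed over both libraries. Saa2 (0 and 101 UMIs) and Orm2 (3 and 27) reached them only through the Crtc2-/- library. Such genes could be counted as higher but not as lower. The median log2 ratio of the 10 genes was 1.33, against -0.05 over all genes. The members were chosen with earlier results of these data known, so their count and median are a description and not independent of the data. Ratios are Crtc2-/- over Crtc2+/+ throughout, and intervals cover counting error only.

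Among the serum amyloid genes, Saa1 stood at 9.70 CPM (6.21 to 14.4, 24 UMIs) and 38.8 CPM (32.2 to 46.3, 123 UMIs), a log2 ratio of 1.31. Saa2 had no UMI in the 270 Crtc2+/+ hepatocytes and 101 UMIs, 31.8 CPM (25.9 to 38.7), in the Crtc2-/- hepatocytes. Taking 3 counts in the Crtc2+/+ class as the limit that a count of 0 allows, 1.21 CPM, Saa2 was at least 26.3-fold higher. Saa3 was rare in both, at 2.83 (1.14 to 5.83) and 5.99 CPM (3.61 to 9.35), a log2 ratio of 0.32 with overlapping intervals. Saa1 and Saa2 thus had intervals that did not overlap between the libraries.

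Of the orosomucoids, Orm1 stood at 60.2 CPM (50.9 to 70.7) and 469 CPM (445 to 493), a ratio of 7.79 (6.58 to 9.28) and a log2 ratio of 2.77 with 10 CPM added. Orm2 was 3 UMIs in the Crtc2+/+ and 27 in the Crtc2-/- hepatocytes, 1.21 and 8.51 CPM. Its ratio was 7.02 (2.16 to 36.2), close to that of its neighbour, although its log2 ratio of 0.72 with 10 CPM added stayed under the threshold.

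Serpina3n and Itih3, the inhibitor and the matrix-binding gene, were both past 2-fold higher. Serpina3n stood at 14.1 CPM (9.85 to 19.7) and 151 CPM (138 to 165), a log2 ratio of 2.74. Itih3 stood at 33.9 CPM (27.1 to 42.0) and 227 CPM (211 to 244), a log2 ratio of 2.43. Neither gene's intervals overlapped, and the ratios without an addition were 10.7 (7.57 to 15.5) and 6.69 (5.33 to 8.49).

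Lcn2, Fgb and Hp were already above 500 CPM in Crtc2+/+ hepatocytes. Lcn2 stood at 546 (517 to 576) and 1412 CPM (1371 to 1454), a log2 ratio of 1.36. Fgb stood at 1831 (1778 to 1885) and 3699 CPM (3633 to 3767), 1.01, only just past the threshold. It was under it when cells of more than 1 class were left out (0.95), in the mean of per-cell CPM (0.78), with markers scaled to depth (0.93) and without cells with a bile duct UMI (0.82). Hp stood at 1635 (1585 to 1686) and 2385 CPM (2331 to 2439), a log2 ratio of 0.54.

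**Figure D2:**
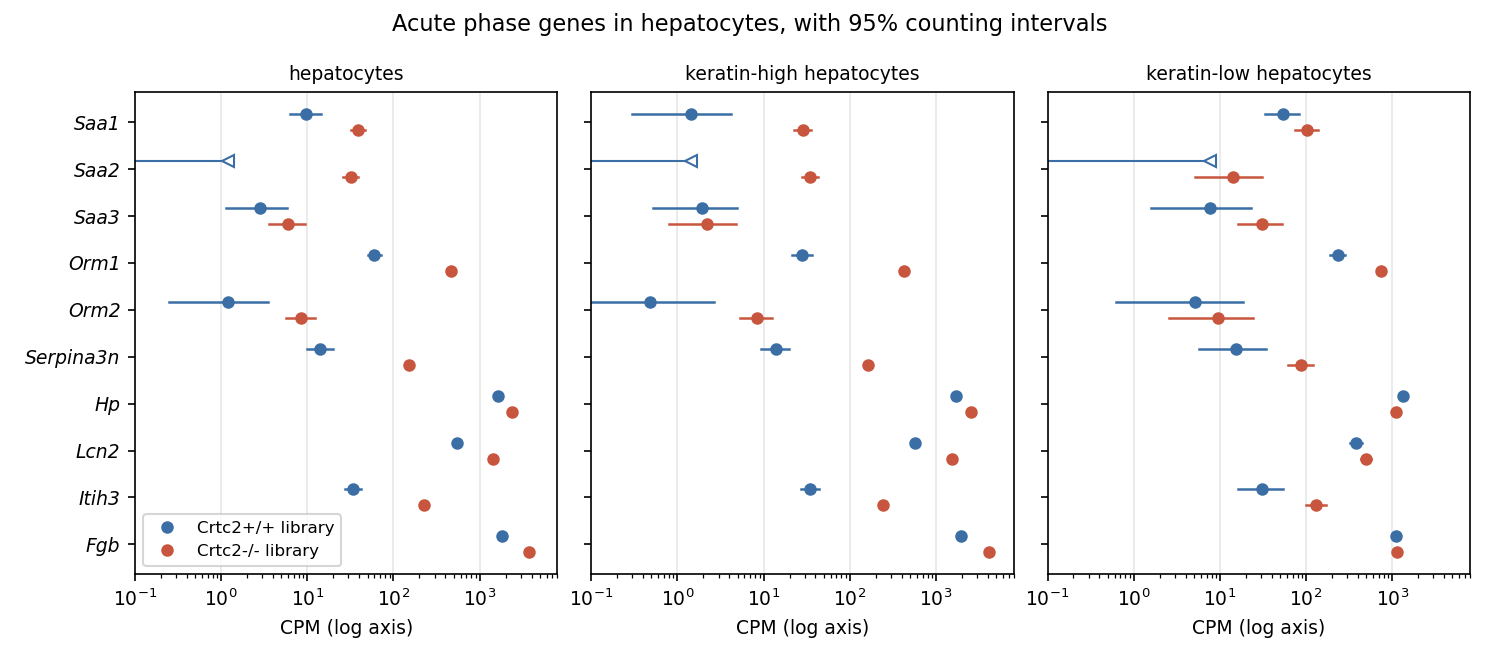
CPM of the 10 genes (log axis) in all, keratin-high and keratin-low hepatocytes of the Crtc2+/+ (blue) and Crtc2-/- (red) libraries; lines are exact 95% Poisson intervals and open triangles mark 3 counts where no UMI was seen. In all hepatocytes the Crtc2-/- point lies to the right for each gene, and in keratin-low cells the Hp points lie the other way, 1334 and 1112 CPM.

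Keratin-high and keratin-low hepatocytes differed in which genes they carried. The split rests on at least 4 keratin UMIs, so it follows depth: median UMIs per cell were 10245.5 and 15860.5 in keratin-high and 2013 and 2965 in keratin-low cells. Keratin-low cells also carried more transcripts of other classes, with summed macrophage markers at 1139 and 698 CPM against 111 and 54.2 CPM in keratin-high cells, and summed endothelial markers at 187 and 1016 CPM. Within the Crtc2+/+ library, Orm1 was at 28.2 CPM in keratin-high and 234 CPM in keratin-low cells and Saa1 at 1.44 and 54.5 CPM. These were the 2 genes of 7 measured past 2-fold, both lower in keratin-high cells, where 7.77% of all genes were. There 0 of 7 were past 2-fold higher, beside 17.8% of all genes. Saa1 (3 and 21 UMIs) reached 20 UMIs only through the keratin-low cells, so it could not be counted as higher in keratin-high cells. Within the Crtc2-/- library Saa1 was again lower in keratin-high cells, at 28.8 against 103 CPM, as 1 of 9 measured, where 11.2% of all genes were. Fgb (4095 against 1145 CPM), Lcn2 (1554 against 496 CPM) and Hp (2582 against 1112 CPM) were past 2-fold higher in them, 3 of 9, where 11.8% of all genes were. Orm1 stood at 426 CPM in keratin-high and 743 CPM in keratin-low cells there, a log2 ratio of -0.79, under the threshold. The share of members lower in keratin-high cells of the Crtc2-/- library was thus near that of all genes.

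Between the libraries, 7 of 9 measured genes were past 2-fold higher in keratin-high hepatocytes and 0 lower, where 4.37% of all genes were higher and 4.98% lower. The median log2 ratio was 1.76 against -0.08 over all genes. Saa1 (3 and 79 UMIs), Saa2 (0 and 95) and Orm2 (1 and 23) reached 20 UMIs only through the Crtc2-/- library. They could thus be counted as higher but not as lower. Orm1 stood at 28.2 CPM (21.5 to 36.4) and 426 CPM (402 to 452), a log2 ratio of 3.51 with 10 CPM added and a ratio of 15.1 (11.6 to 19.96) without. Saa2 was at least 24.1-fold higher. Saa1 rested on 3 UMIs in the Crtc2+/+ and 79 in the Crtc2-/- library, a ratio of 20.03 (6.61 to 99.2). In keratin-low hepatocytes 3 of 7 measured genes were past 2-fold higher and 0 lower, beside 12.2% and 6.61% of all genes. These were Serpina3n (15.6 and 87.0 CPM, log2 ratio 1.92), Itih3 (31.1 and 132 CPM, 1.78) and Orm1 (234 and 743 CPM, 1.63). Serpina3n (6 and 37 UMIs) and Itih3 (12 and 56) reached 20 UMIs there only through the Crtc2-/- library. Fgb stood at 1095 (993 to 1204) and 1145 CPM (1046 to 1251), 0.06, so its difference between the libraries was not seen in keratin-low cells. The keratin-low count depends on the gate: it was 6 of 7 with marker UMIs scaled to 10000 per barcode and 5 of 7 with all gate thresholds doubled.

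Summed over cells, those with a bile duct marker carried little of some of these genes and as much of others. In the Crtc2+/+ library Orm1 stood at 199 CPM in the 146 hepatocytes without such a UMI and 5.08 CPM in the 124 with one, and Saa1 at 34.1 CPM and 0 UMIs. These 2 of 7 measured genes were past 2-fold lower in cells with the UMI, where 6.34% of all genes were. Orm1 (140 UMIs without and 9 with) and Saa1 (24 and 0) reached the UMIs required only through the cells without it. They could thus be counted as lower but not as higher. Fgb (1668 and 1896 CPM), Hp (1437 and 1714 CPM), Itih3 (35.5 and 33.3 CPM) and Serpina3n (15.6 and 13.6 CPM) differed little between the sums of the same sets of cells. Lcn2 was at 335 CPM without and 630 CPM with a bile duct UMI. In the Crtc2-/- library 3 of 9 measured genes were past 2-fold lower in cells with the UMI, where 5.24% of all genes were. These were Orm1 (774 and 212 CPM), Saa1 (77.9 and 5.81 CPM) and Saa2 (61.4 and 6.97 CPM). Saa1 (113 and 10 UMIs) and Saa2 (89 and 12) again could not be counted as higher in cells with the UMI. Lcn2, at 904 and 1840 CPM, was the 1 gene past 2-fold higher in cells with the UMI, where 6.51% were. In sum, the bile duct marker cells of the Crtc2+/+ library thus carried Fgb and Hp near the level of the other hepatocytes but almost no Orm1 or Saa1. Single cells among them varied widely. Those of 36922 and 27325 UMIs had 0 Fgb UMIs, and the cell of 30825 UMIs had 148.

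Without those cells, 5 of 9 measured genes were past 2-fold higher in the Crtc2-/- library and 0 lower, where 8.69% and 4.49% of all genes were. Orm1 stood at 199 (167 to 235) and 774 CPM (729 to 820), a log2 ratio of 1.91 in place of 2.77. Serpina3n (15.6 and 123 CPM, 2.37), Itih3 (35.5 and 157 CPM, 1.87), Lcn2 (335 and 904 CPM, 1.41) and Saa2 (0 and 61.4 CPM, from 0 and 89 UMIs) were the others. Fgb was at 0.82, Saa1 at 0.996 and Saa3 at -0.02. Among cells with a bile duct UMI, 5 of 6 measured genes were past 2-fold higher and 0 lower, where 4.78% and 5.31% of all genes were. Orm1 had 5.08 CPM (2.32 to 9.65) and 212 CPM (191 to 235) there. It reached the UMIs required in these cells only through the Crtc2-/- library (9 and 365 UMIs). In cells without a bile duct UMI the same held for Serpina3n (11 and 178) and Saa2 (0 and 89). These could thus be counted as higher but not as lower. By CPM, the higher level of Orm1, Serpina3n, Itih3 and Lcn2 in the Crtc2-/- library was seen in both sets of cells. Of these genes, Itih3 and Lcn2 had the UMIs required in each library in both sets. The cut at 1 UMI follows depth, which was higher in cells with a bile duct UMI, and a cell without such a UMI may still carry such transcripts.

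**Figure D3:**
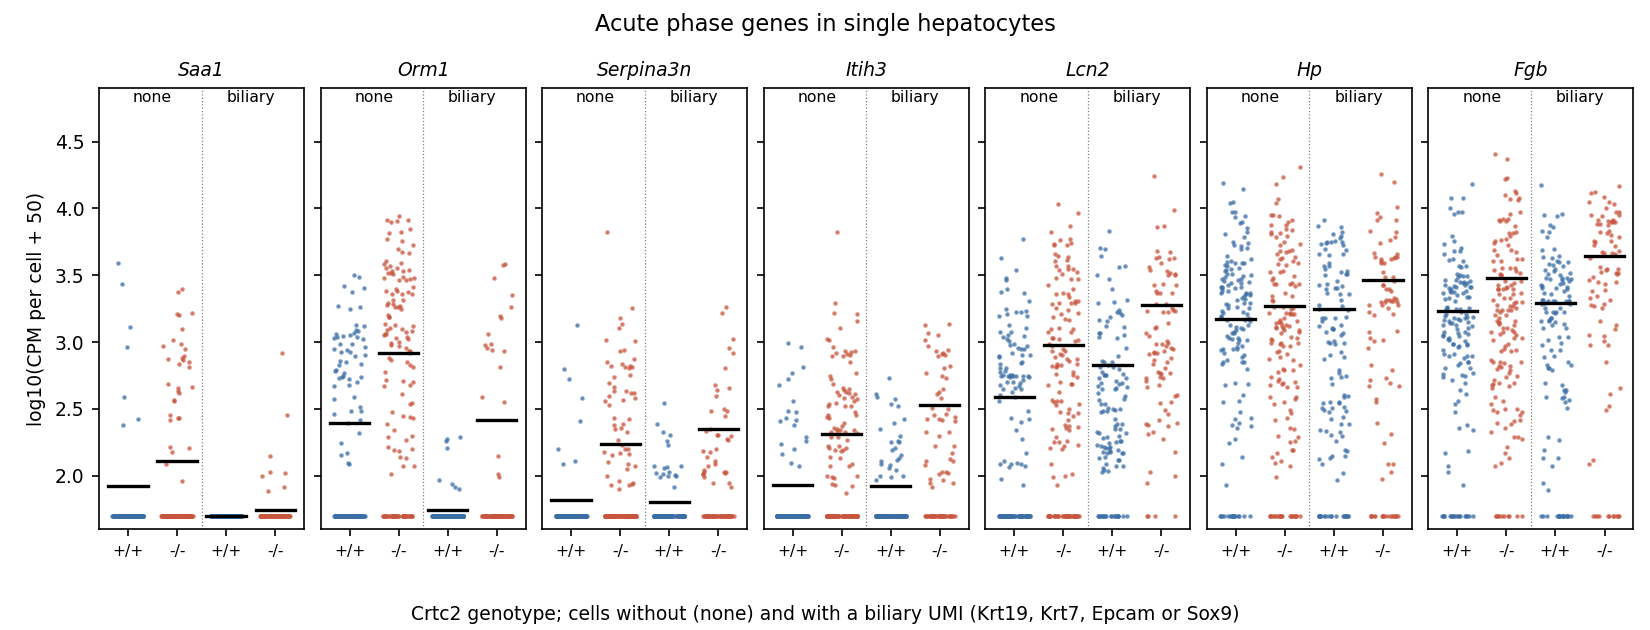
Level of 7 genes in each hepatocyte, as log10 of CPM per cell with 50 added, by library (blue Crtc2+/+, red Crtc2-/-), in cells without (left) and with (right) a UMI of Krt19, Krt7, Epcam or Sox9; black bars are the level of the summed cells. Orm1 and Saa1 lie almost wholly at the bottom line, which is 0 UMIs, in Crtc2+/+ cells with a bile duct UMI, while Fgb and Hp do not.

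The genes differed in how evenly cells held them. The richest 10% of hepatocytes for each gene held from 45.4% (Fgb, Crtc2-/-) to 100% of its UMIs. Saa2 was found in 15 of 239 Crtc2-/- hepatocytes (6.28%, 3.55 to 10.1), with up to 22 UMIs in a cell, and in 0 of 270 Crtc2+/+ hepatocytes, which allows a share of cells with a UMI of up to 1.11% and sets no limit on cells that express the gene. Orm1 was found in 24.4% (19.4 to 30.02) and 52.3% (45.8 to 58.8) of hepatocytes, and in 11.9% and 36.9% after each cell was thinned to 1000 UMIs, which left out 18 and 6 shallower cells. In T cells, which should lack the gene, the share with an Orm1 UMI was 0.104% and 0.767%. For Hp the shares were 85.9% and 83.7%, and 59.9% and 60.1% after thinning, beside 2.02% and 3.26% of T cells, at median depths of 4617.5 and 4705 UMIs. Thus the higher Orm1 level of the Crtc2-/- library came with more positive cells, whereas Hp was found in like shares of cells.

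Across single Crtc2-/- hepatocytes, Spearman correlations of per-cell levels were 0.53 for Hp with Fgb, 0.51 for Hp with Lcn2, 0.48 for Serpina3n with Itih3, 0.42 for Saa1 with Saa2 and -0.06 for Saa1 with Fgb. In Crtc2+/+ hepatocytes Hp with Fgb gave 0.45 and Hp with Lcn2 0.22. These describe cells of 1 library that share free RNA and differ in depth, so they carry no test. In Crtc2-/- hepatocytes Saa1 and Saa2 thus went together but apart from fibrinogen, and Saa1 with Orm1 gave a near value of 0.39. Saa2 had no UMI in Crtc2+/+ hepatocytes, so its correlations are not defined there.

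Values per albumin UMI are a description only, since Alb is among the genes that define the hepatocyte class. Per 1000 Alb UMIs in hepatocytes, Orm1 gave 7.57 and 48.4 UMIs, Serpina3n 1.78 and 15.6, Itih3 4.27 and 23.4, and Saa1 1.22 and 4.005. Lcn2 gave 68.6 and 146, Fgb 230 and 382, and Hp 206 and 246. In keratin-high hepatocytes, where Hp was higher by CPM in the Crtc2-/- library, it gave 302 and 295 per 1000 Alb UMIs, and in keratin-low hepatocytes, where it was lower by CPM, 64.3 and 70.7. Saa3 in keratin-high hepatocytes gave 0.342 and 0.2498 per 1000 Alb UMIs, against CPM in the other direction. The gate genes themselves were at 7952 and 9683 CPM (Alb), 1929 and 2445 CPM (Ttr) and 1251 and 9460 CPM (Apoa1), so Apoa1 was far higher in the Crtc2-/- library.

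The members were not alone among the products of hepatocytes. Of 29 measured genes among 32 other acute phase genes, 10 were past 2-fold higher and 3 lower in Crtc2-/- hepatocytes, with a median log2 ratio of 0.82. Of all genes, 4.21% were that much higher and 4% that much lower. Lrg1, a secreted glycoprotein of the response, was at 54.1 and 521 CPM, Serpina3k, a relative of Serpina3n, at 14.1 and 182 CPM, and Fgl1, a fibrinogen-like hepatocyte protein, at 50.9 and 287 CPM. The exception was Hamp, which encodes the iron hormone hepcidin, at 715 and 152 CPM, a log2 ratio of -2.17. C3, the central complement protein, and Mbl2, a mannose-binding lectin, were past 2-fold lower too, and Crp stood at 165 and 81.6 CPM, a log2 ratio of -0.94. The other chains of fibrinogen had log2 ratios of 0.86 (Fga) and 0.43 (Fgg). C3, Mbl2, Crp, Fga and Fgg were picked out after their values were seen.

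Negative acute phase genes are those that fall in a classical acute phase response. Of 10 negative acute phase genes, 6 were past 2-fold higher and 1 lower in Crtc2-/- hepatocytes, with a median log2 ratio of 1.06. Of all genes, 4.21% were that much higher and 4% that much lower. Trf, which encodes transferrin, stood at 2887 and 6141 CPM, Rbp4, the carrier of retinol, at 1588 and 4211 CPM, Serpina7, a thyroxine carrier, at 9.29 and 72.2 CPM, and Cyp2e1, a drug-metabolising enzyme, at 0 and 59.3 CPM. Cyp2e1 (0 and 188 UMIs) and Cyp3a11 (0 and 50), both among the 6, reached 20 UMIs only through the Crtc2-/- library. Both could thus be counted as higher but not as lower. Cyp3a11 was picked out after its values were seen. The gene past 2-fold lower was Igf1, a growth factor, at 74.3 and 32.2 CPM, and Serpina6, a corticosteroid carrier, had a log2 ratio of -0.73; both were picked out after their values were seen. In keratin-low hepatocytes 2 of 7 measured genes of this list were past 2-fold higher and 0 lower, beside 12.2% and 6.61% of all genes. One of the 2 was Cyp2e1 (0 and 22 UMIs), which could not be counted as lower there either. The median of the 7 was 0.06, and Trf was at -0.18 and Rbp4 at -0.41. Of 18 other plasma protein genes, 10 were past 2-fold higher and 1 lower in all hepatocytes, beside 4.21% and 4% of all genes, with a median of 1.07. Serpina1a, Apoa2, Serpina1b and Serpina1e led this list with log2 ratios of 2.59, 2.43, 2.34 and 1.69. The median of the 10 acute phase genes in all hepatocytes, 1.33, stood beside 0.82, 1.06 and 1.07 for the other acute phase, negative acute phase and plasma protein lists. In keratin-high hepatocytes the members' median of 1.76 stood beside 0.59, 1.16 and 1.26, and in keratin-low hepatocytes 0.82 stood beside 0.19, 0.06 and 0.14. No test was made of these differences.

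**Figure D4:**
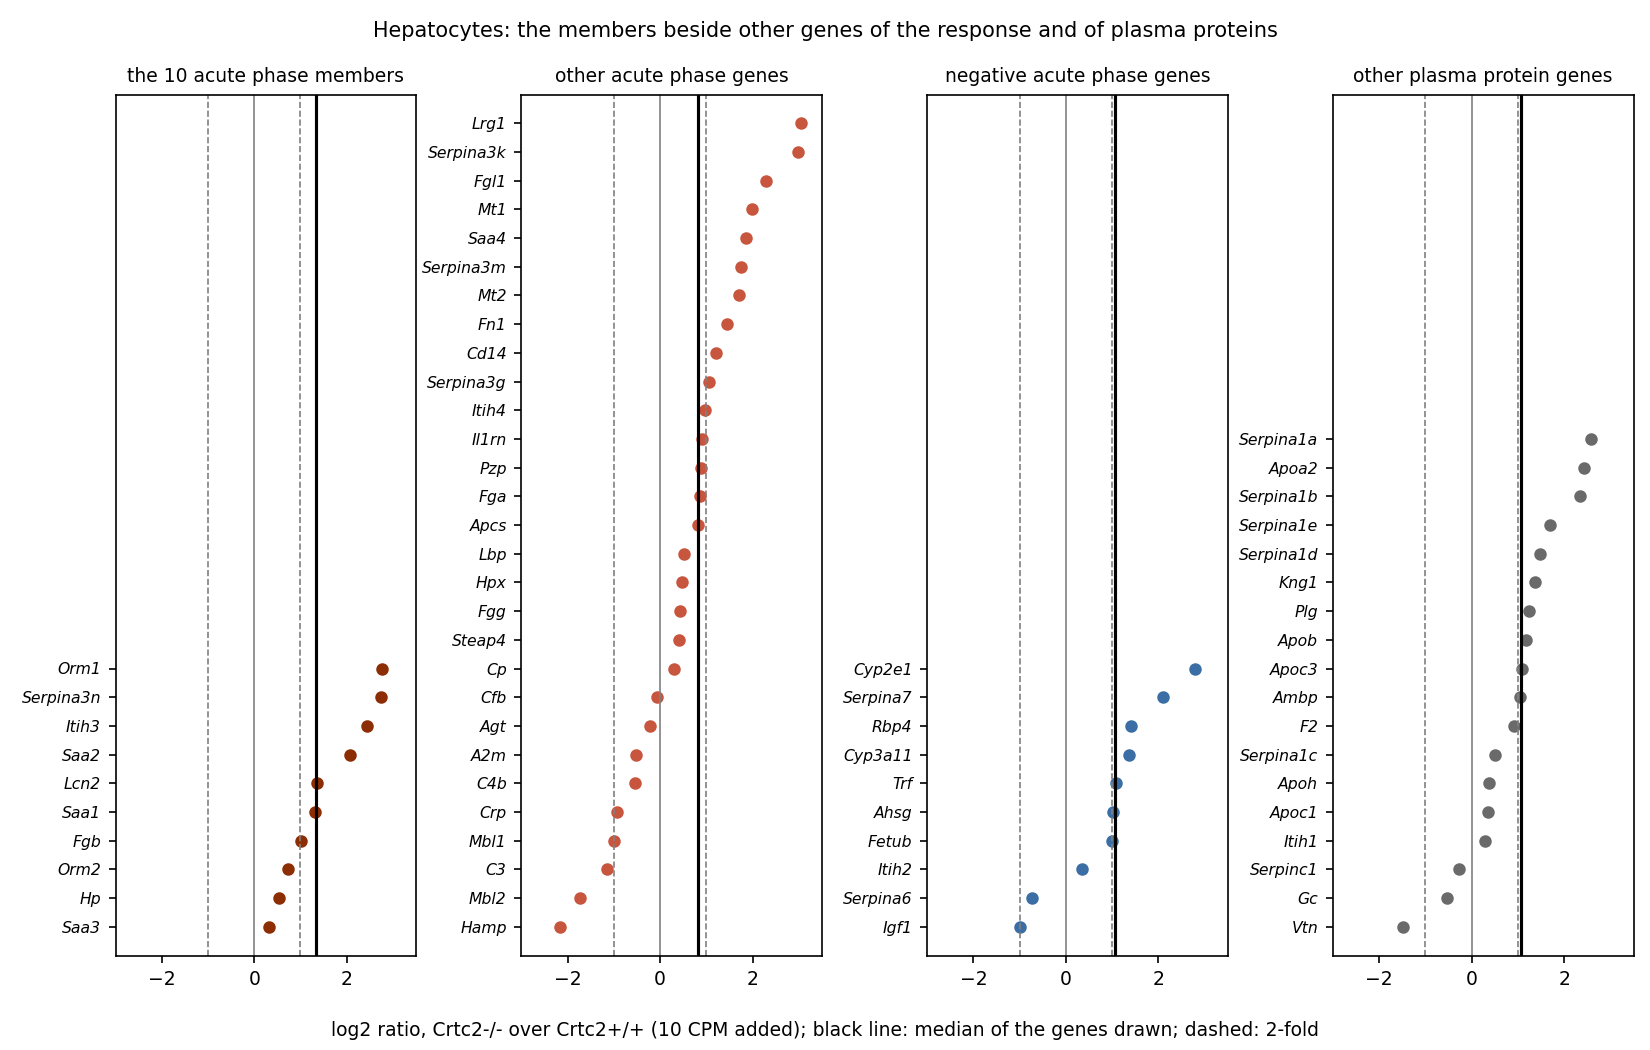
Log2 ratio of CPM, Crtc2-/- over Crtc2+/+ with 10 CPM added, in hepatocytes for the 10 genes and for 3 other lists, each gene being a point, the black line the median of a list and the dashed lines 2-fold. The medians are 1.33, 0.82, 1.06 and 1.07 from left to right, and Hamp lies lowest at -2.17.

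Lcn2 in neutrophils followed a minority of cells. Neutrophils of the Crtc2+/+ library had 1169 CPM (1035 to 1315) and those of the Crtc2-/- library 4508 CPM (4394 to 4625), a log2 ratio of 1.94. Orm1 had 2 UMIs, 8.41 CPM, and 177 UMIs, 136 CPM, a ratio of 16.2 (4.41 to 134). These were the 2 of 5 measured genes past 2-fold higher in neutrophils, with 0 lower, where 10.3% and 2.54% of all genes were. Orm1 reached the UMIs required in neutrophils only through the Crtc2-/- library, so it could be counted as higher but not as lower. Hp stood at 816 (705 to 939) and 942 CPM (890 to 996), 0.20, with overlapping intervals. The richest 31 of 310 Crtc2-/- neutrophils for Lcn2 held 76.4% of its UMIs, 97.7% of those of Orm1, 96.7% of Ngp and 99.01% of Camp, genes of granule proteins made in immature neutrophils that were looked at after these values were seen.

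Cells with a UMI of Ngp, Ltf or Camp numbered 2 of 75 in the Crtc2+/+ and 47 of 310 in the Crtc2-/- library. In those 47 cells Lcn2 stood at 11011 CPM and Orm1 at 415 CPM. In the remaining neutrophils, 73 and 263 cells, Lcn2 stood at 1168 (1033 to 1316) and 1422 CPM (1345 to 1503) and Orm1 at 8.62 and 3.39 CPM, from 2 and 3 UMIs. Neither was past 2-fold without the granule gene cells. Hp stood at 806 and 823 CPM in the remaining neutrophils, and at 1192 CPM (1090 to 1301) in the 47 cells, above the 823 CPM (764 to 885) of the other Crtc2-/- neutrophils. In the Crtc2-/- library Lcn2 and Orm1 thus went with granule genes. In the Crtc2+/+ library Ngp and Camp had no UMI, and Lcn2 stood at 1185 CPM, from 7 UMIs, in the 2 cells with a granule gene UMI and 1168 CPM in the others.

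Saa3 was the gene of monocytes. It stood at 13.2 CPM (10.8 to 16.04) in Crtc2+/+ and 88.5 CPM (82.9 to 94.3) in Crtc2-/- monocytes, a log2 ratio of 2.08, and was found in 14 of 824 (1.70%, 0.932 to 2.83) and 51 of 969 cells (5.26%, 3.94 to 6.86). Of the Crtc2-/- UMIs, 90.1% were in 18 cells with at least 10 each, and 20.5% in 1 cell. Without the richest cell of each library the log2 ratio was 2.06, and in monocytes that passed no other gate it was 1.505, at 28.5 and 99.3 CPM. An Hp UMI was present in 92.2% of Crtc2-/- monocytes with a Saa3 UMI and 35.7% of those without, and in 92.9% and 25.1% of Crtc2+/+ monocytes. Monocytes with Saa3 thus mostly carried Hp as well.

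Other differences in monocytes rested on cells that also passed another gate. In all monocytes 5 of 7 measured genes were past 2-fold higher and 0 lower, where 1.26% and 0.764% of all genes were. Fgb (2.05 and 67.1 CPM), Lcn2 (4.37 and 47.4 CPM), Orm1 (0.257 and 13.9 CPM) and Itih3 (0 and 11.5 CPM) were among them. Fgb (16 and 708 UMIs), Orm1 (2 and 147) and Itih3 (0 and 121) reached 20 UMIs in monocytes only through the Crtc2-/- library. They could thus be counted as higher but not as lower. Hepatocyte markers summed to 6.04 and 52.2 CPM in the same cells, and 2 and 9 monocyte barcodes also passed the hepatocyte gate. In monocytes of no other class, 377 and 717 cells, Fgb stood at 1.45 and 4.76 CPM, Lcn2 at 8.43 and 7.67 CPM, Orm1 at 0.291 and 1.06 CPM and Itih3 at 0 and 0.132 CPM. Only Saa3 remained past 2-fold there. Hp in these cells stood at 261 and 254 CPM, far above the 3.64 and 5.55 CPM in T cells of no other class, and alike in the libraries.

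Macrophages, endothelial cells and T cells carried low levels. Past 2-fold higher were Lcn2 and Fgb in macrophages (2 of 7 measured, where 2.88% of all genes were), Orm1 and Fgb in endothelial cells (2 of 6, where 2.3% were) and Fgb in T cells (1 of 7, where 0.909% were). None was lower in these classes, where 1.74%, 2.58% and 0.44% of all genes were. In endothelial cells Orm1 (6 and 152 UMIs) reached the UMIs required only through the Crtc2-/- library, as did Serpina3n, Lcn2 and Itih3. The same held for Saa3, Serpina3n and Itih3 in macrophages, and for Saa3, Orm1, Serpina3n and Itih3 in T cells. Such genes could be counted as higher but not as lower. Fgb stood at 10.3 and 43.1 CPM in macrophages, 10.4 and 45.2 CPM in endothelial cells, and 20.6 and 52.7 CPM in T cells. Summed hepatocyte markers were 10.8 and 24.3 CPM, 36.7 and 85.2 CPM, and 18.3 and 34.4 CPM in the same classes. In cells that passed no other gate, 0 members were past 2-fold in each of the 3 classes, with Fgb at 3.54 and 12.1, 4.02 and 16.6, and 2.79 and 4.18 CPM.

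**Figure D5:**
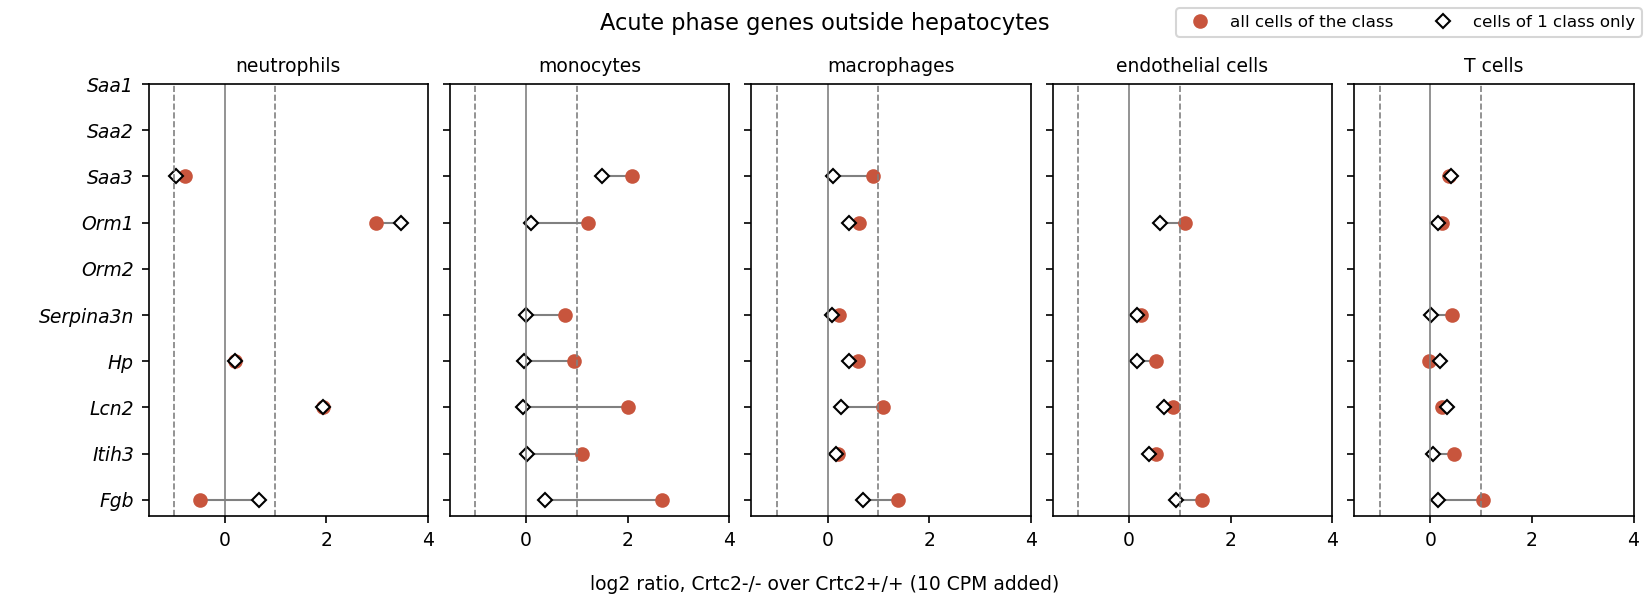
Log2 ratio of CPM, Crtc2-/- over Crtc2+/+ with 10 CPM added, of the genes with at least 20 UMIs in 5 classes other than hepatocytes, in all cells of a class (filled) and in cells that passed no other gate (open diamonds); dashed lines mark 2-fold. In monocytes the open points lie at or below 0.37 except for Saa3 at 1.505, and in neutrophils the open point of Lcn2 is at 1.93.

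The genes with the most similar patterns over the 14 values of 7 classes in both libraries differed between members. Similarity was Pearson's r of log2 CPM with 10 added, among 7319 genes. Fgb was most like Ahsg (0.994), Fgg (0.994) and Serpina1c (0.989), all products of hepatocytes. Orm1 was most like Serpina3k (0.920), Agxt (0.905) and Gpc3 (0.899), and Saa1 like Mup21 (0.974), Serpina3k (0.949) and Igfbp2 (0.943). Saa2 was most like Cyp2c68 (0.989), Nr0b2 (0.980) and Cacna1c (0.978), and Orm2 like Rdh16f2 (0.992), Agxt (0.991) and Serpina3k (0.977). Serpina3n resembled 1810008I18Rik (0.993), Hgfac (0.991) and Elovl2 (0.989), and Itih3 resembled Sult1d1 (0.989), Ftcd (0.987) and Ifi27l2b (0.987). Saa3 was most like Gm9733 (0.877), Naaa (0.836) and Napsa (0.833), at lower values. Lcn2 was most like Megf9 (0.939), F5 (0.938) and Steap4 (0.937), and Hp like Sephs2 (0.960), F5 (0.946) and Mgst1 (0.945). The values of 1 gene share libraries and classes and carry no test.

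Cytokines that induce the response were measured in the class where each was highest. Il1a, an interleukin-1, stood at 53.2 and 154 CPM in endothelial cells, and Tnf at 189 and 407 CPM in neutrophils. Il1b, the other interleukin-1, was lower in Crtc2-/- neutrophils, at 12621 and 9142 CPM, and higher in Crtc2-/- macrophages, at 450 and 669 CPM. Il6 stood at 6.49 and 6.69 CPM in endothelial cells, alike in the libraries, and at 0.883 and 4.89 CPM in macrophages. In keratin-low hepatocytes it had 0 and 15 UMIs, under the 20 required. Il1b and Il6 were picked out after their values were seen. Osm, a relative of interleukin-6, was lower in Crtc2-/- neutrophils, at 778 and 470 CPM, a log2 ratio of -0.72. Ctf1, which encodes cardiotrophin, stood at 23.0 and 10.2 CPM in keratin-high hepatocytes. Of 6 measured inducer genes none was past 2-fold in hepatocytes, and of 8 measured receptor genes none was, where 4.21% of all genes were higher and 4% lower. In keratin-low hepatocytes 2 of 3 measured inducers were past 2-fold higher, Il1a (5.19 and 61.1 CPM, from 2 and 26 UMIs) and Tnf (7.78 and 47.0 CPM, from 3 and 20 UMIs). So was 1 of 5 measured receptors, Il6st (15.6 and 113 CPM, from 6 and 48 UMIs), where 12.2% of all genes were. These genes reached 20 UMIs in keratin-low cells only through the Crtc2-/- library. Macrophage and endothelial markers were high in the same cells, as given above, and their part was not tested. Lifr, the receptor of leukaemia inhibitory factor, stood at 154 and 385 CPM in endothelial cells, Il6st at 296 and 551 CPM and Il1r1 at 102 and 169 CPM. Il10rb, a shared receptor chain, stood at 224 and 184 CPM in macrophages. In hepatocytes Il6ra, the interleukin-6 receptor, stood at 29.5 and 36.9 CPM and Il6st, which encodes gp130, at 47.7 and 64.6 CPM, while Il1r1, the interleukin-1 receptor, stood at 50.5 and 25.9 CPM.

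Of 15 measured genes of signalling and transcription factors, 2 were past 2-fold higher in Crtc2-/- hepatocytes and 0 lower, beside 4.21% and 4% of all genes. The 2 were Cebpb, a C/EBP factor of the acute phase, at 156 and 363 CPM, and Hnf4a, a factor of hepatocyte identity, at 78.8 and 195 CPM. Socs3, a feedback inhibitor induced by STAT3, stood at 52.1 and 110 CPM, a log2 ratio of 0.95, and Stat3 at 109 and 190 CPM, 0.74. Cebpa stood at 152 and 148 CPM. In keratin-low hepatocytes 6 of 14 measured genes of this list were past 2-fold higher and 0 lower, beside 12.2% and 6.61% of all genes. In the class where each was highest, the kinase gene Jak1 stood at 624 and 1078 CPM (endothelial cells), Jak2 at 198 and 120 CPM (neutrophils), and Creb3l3, a hepatocyte transcription factor, at 74.6 and 120.1 CPM (keratin-high hepatocytes). The hepatocyte values of the receptors, those of keratin-low hepatocytes, and Cebpb, Socs3, Stat3 and Cebpa were picked out after they were seen. Of 6 measured receptors and partners of the proteins none was past 2-fold in hepatocytes, where 4.21% of all genes were higher and 4% lower. Scarb1, a lipoprotein receptor that binds serum amyloid A, stood at 305 and 171 CPM in endothelial cells, P2rx7, a receptor of extracellular ATP, at 114 and 75.4 CPM in macrophages, and Tlr4 and Fpr2, receptors of innate immune cells, at 147 and 116 CPM and 143 and 179 CPM in neutrophils.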

How the data were processed

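Single cells of liver tumours were profiled with a 10x 3′ kit, named as v2 in the labels' protocols, in 1 library per genotype. The deposited values are raw UMI counts per gene and barcode, made by the authors with Cell Ranger 7.1.0 per the file headers; the submitters' processing notes also name mm10 and Seurat. The sources used here do not say whether intronic reads were counted. A barcode was kept if it had a minimum of 500 UMIs and of 250 genes, and a mitochondrial share of no more than 20% (9612 and 9174 of 9707 and 9242). Scrublet (scanpy 1.11.5) called 263 and 273 of them doublets (2.74% and 2.98%, against expected shares of 7.69% and 7.34%), which were removed. The median depth of kept cells was 7115 and 6560 UMIs.

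Counts were summed per class and library and divided by the class total. Ratios are log2 with 10 CPM added, for genes counted 20 or more times in the class (libraries summed), and 2-fold is a description, not a test. A gene can pass this filter through 1 library alone, and can then be counted only as higher in that library. Intervals are exact Poisson or Clopper-Pearson at 95% and cover counting error only; where no UMI was seen, 3 counts were taken as the limit. The method was tested on simulated counts that held counting error only, with changes set only in genes of higher level. Changes in rare genes, and differences between animals or libraries, were not simulated. Python 3.11.15, scipy 1.17.1, numpy 2.4.6, pandas 2.3.3 and matplotlib 3.10.9 were used.

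Named were all 10 members, and of each other list up to 4 genes with the largest absolute log2 ratio and at least 50 CPM in 1 library (20 CPM for inducers, receptors and signalling, in the class where each was highest), and the 3 genes most like each member; other names are said to be picked after their values were seen. The members and lists were chosen with earlier results of these data known. Of the alternatives, 11 were planned and 4 were added after seeing the data.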

Additional observations from a re-analysis of the deposited data

How the results depend on the processing

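With 1 library per genotype these values have no replicate check, and few hepatocytes and rare transcripts limit them. No paired analysis was possible because each genotype has 1 library. The count of the 10 genes past 2-fold stayed between 5 and 8 in hepatocytes (7 as reported) and between 6 and 8 in keratin-high hepatocytes (7) over all alternatives run. Counts in other classes moved. With 1 CPM added in place of 10 they were 6 in macrophages (2 as reported), 4 in endothelial cells (2) and 5 in T cells (1). With cells of 1 class only they were 1 in monocytes (5 as reported) and 0 in macrophages, endothelial cells and T cells. With the mean of per-cell CPM they were 3 in monocytes, 1 in macrophages, 1 in endothelial cells and 0 in T cells. With thresholds doubled they were 5 in keratin-low hepatocytes (3 as reported) and 0 in macrophages and T cells. With markers scaled to 10000 UMIs they were 6 in keratin-low hepatocytes, 2 in monocytes and 0 in macrophages and T cells. With called doublets kept, or with median-of-ratios scaling, the T cell count was 0, and with no filter on low counts the keratin-low count was 5. With the T cell level subtracted it was 0 in macrophages and 1 in endothelial cells. Of the alternatives added after seeing the data, leaving out the top cell of each gene gave 3 in monocytes and 0 in macrophages and endothelial cells, and leaving out neutrophils with an Ngp, Ltf or Camp UMI gave 0 (2 as reported). Between keratin-high and keratin-low cells, 4 genes (2 as reported) were past 2-fold in the Crtc2+/+ library with keratin UMIs scaled, and 2 (4 as reported) in the Crtc2-/- library with cells of 1 class only. Among values past 2-fold, direction turned for Lcn2 in monocytes with cells of 1 class only (-0.061) and for Orm1 in neutrophils without granule gene cells (-0.48). Counting all members, the sign differed from the reported one in 11 of 78 values with cells of 1 class only, 3 of 58 with at least 5000 UMIs, 2 of 58 with markers scaled, 2 of 26 without cells with a bile duct UMI and 3 of 20 with keratin scaled, and in 1 or 0 values under each other setting. The causes were not tested.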
